A study of Rattus norvegicus with 6 samples.

Results

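In the rat hippocampus, 22 circular RNAs (circRNAs) were detected on all 3 sham arrays and on none of the 3 AD arrays. A circRNA probe counted as detected where the scanner software marked its spot as well above background, that is, where the background-subtracted signal was significantly positive and also exceeded a multiple of the background's standard deviation. The 22 were chosen by this mark, so the difference between sham and AD in their signals was used to choose them and is given as a description. They were 0.156% of the 14133 circRNA probes without an outlier mark on any array; the array carried 14145 circRNA probes with 1 spot each, and 12 were left out for such a mark. Both groups were adult male Sprague Dawley rats, an outbred laboratory strain, and whole hippocampal tissue was profiled. In the AD group, oligomers of the Aβ1-42 peptide had been injected into the cerebral ventricles, and in the sham group only the vehicle had been injected, through a cannula into both lateral ventricles. AD here therefore means a rat model made by peptide injection. Each group had 3 samples with 1 array each, and the sources used here do not give the rats' age beyond adult, the time from injection to sampling, or whether each sample was 1 rat, so any p-value measures only the spread between these samples, which may be technical.

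A circRNA is a closed loop that forms when the spliceosome joins the end of an exon back to the start of the same or an earlier exon. Without free ends it resists exonucleases, which is why the authors treated the RNA with RNase R, an enzyme that digests linear RNA, before labelling it with the dye Cy3. Brain tissue is known for abundant circRNAs, many of them made from genes that act at synapses, and some circRNAs bind microRNAs or proteins. The processed files do not pair the 22 probes with a circRNA name, a host gene or a sequence, so each is given by its array identifier and no role can be stated for it.

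The detection mark did not mean that the 22 gave no signal on the AD arrays. The software also marks a signal that is positive and significantly different from background, which is a weaker requirement. By that mark, 21 of the 22 were positive on all 3 AD arrays. The exception was ASCRPR013488, chosen after its values were seen, which was positive on 2 AD arrays and read 2.04 on AD 1, 6.89 on AD 2 and 5.77 on AD 3. The words "only on sham" below therefore refer to the mark of well above background.

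Over all circRNA probes, 10864 to 11077 were well above background on the sham arrays and 11074 to 12021 on the AD arrays, where AD 2 had the most. The mean was 10955.3 ± 109.7 in sham and 11471.7 ± 491.4 in AD (SD, n = 3 each; exact permutation test, two-sided, p = 0.2, with 0.1 the smallest value that 3 against 3 arrays allow). AD 1 to 3, sham 1 and sham 2 shared 1 scan date, and sham 3 had another. The slides that held the arrays were not looked up. The median local background was 28 on sham 3 and 16 to 17 on the other arrays. Sham 1 stood apart from the other sham arrays. Over 11570 circRNA probes detected on at least 3 arrays and free of outlier marks, its mean Pearson correlation was 0.931 with the AD arrays and 0.906 with the sham arrays, while sham 2 gave 0.850 and 0.927 and sham 3 gave 0.900 and 0.952. The correlations run across probes, which are not independent replicates, and are descriptions. Of 32 marker genes of neurons, glia, choroid plexus and blood, 3 had a linear probe on the array. These were Dlg4, Map2 and Ptk2b, all expressed in neurons and all detected on every array. As RNase R digests linear RNA, such a probe reads what was left after the treatment, and its level is not a measure of cell content. The scaled log2 level of Ptk2b, a kinase gene, was 0.18, -2.08 and -1.38 on sham 1 to 3 and 1.62, 1.20 and 0.97 on AD 1 to 3, so all AD arrays lay above all sham arrays. Dlg4 ran from 3.71 to 4.36 and Map2 from -2.08 to -0.88 over the 6 arrays, with the groups overlapping in both. A part of neuronal content, or of unequal RNase R digestion, in the results was not tested. No marker of glia, choroid plexus or blood could be read. In bulk tissue, fewer cells of a type and less RNA per cell cannot be told apart.

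Detection on all sham and no AD arrays was 1 of 20 ways in which a circRNA can be detected on exactly 3 of 6 arrays, and it was not among the most frequent. In all, 501 circRNAs were detected on exactly 3 arrays, and the 22 made up 4.39% of them. The opposite pattern, all AD and no sham arrays, held 140 circRNAs. With 1 common limit on the scaled signal for all arrays the counts were 40 for sham only and 96 for AD only, and with the weaker mark of a positive and significant signal they were 7 and 56. The 18 patterns that mixed AD and sham arrays held 2 to 77 circRNAs, with a median of 10.5 and a sum of 339. Of these mixed patterns, 5 held more circRNAs than the sham-only pattern, 1 held the same number, and 12 held fewer. The largest mixed pattern, with 77, was AD 2 with sham 2 and sham 3.

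**Figure D1:**
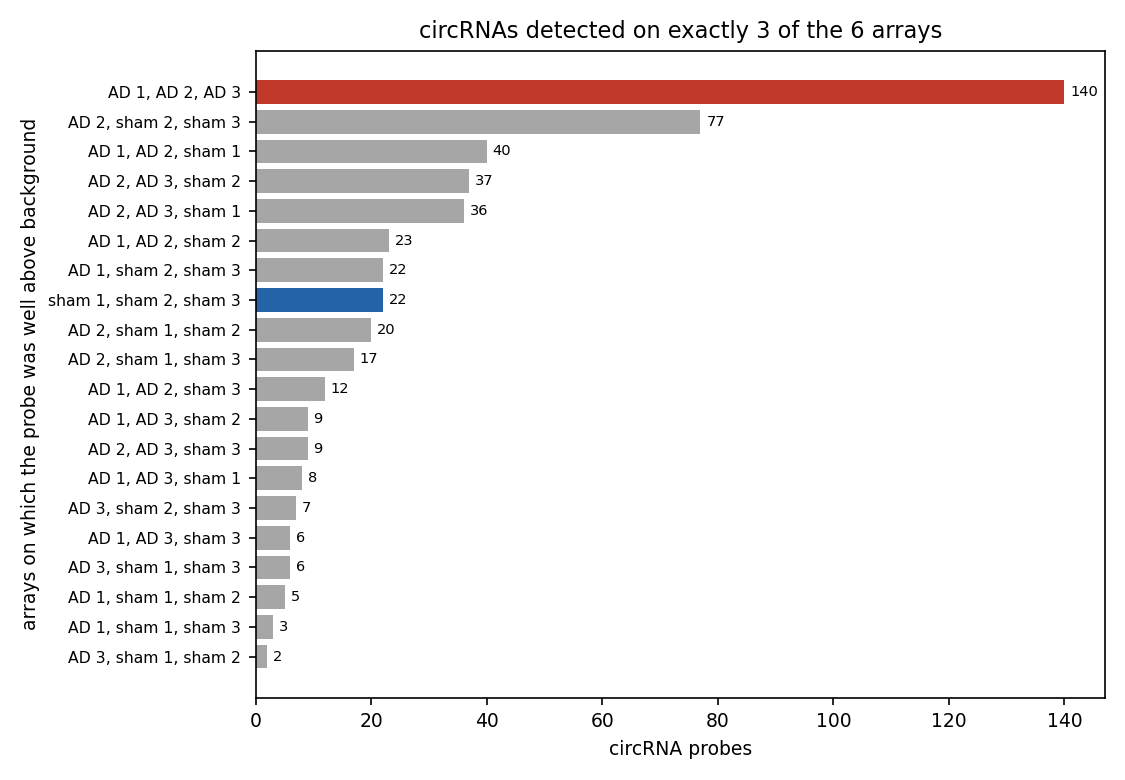
Number of circRNA probes (x axis) detected on exactly 3 of the 6 arrays, by the arrays on which they were well above background (y axis), with the sham-only pattern in blue, the AD-only pattern in red and the 18 mixed patterns in grey. The sham-only bar stands at 22, beside 140 for AD only and 77 for the largest mixed pattern.

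The arrays entered these patterns unequally, and AD 2 and sham 1 were at the ends. Of the 501 circRNAs, 411 were detected on AD 2, against 268 on AD 1 and 260 on AD 3. Sham 1 took part in 159, sham 2 in 224 and sham 3 in 181. Accordingly, 73 further circRNAs were detected on all sham arrays and on AD 2 alone of the AD arrays, whereas 13 were detected on all sham arrays and AD 1 alone and 6 on all sham arrays and AD 3 alone. Similarly, 61 circRNAs were detected on sham 2 and sham 3 only, while 16 were detected on sham 1 and sham 2 only and 8 on sham 1 and sham 3 only. Counting circRNAs detected on no AD array and on at least 2 sham arrays gave 107. Since the rule needs all 6 arrays, leaving out AD 2 raised the count of sham-only circRNAs from 22 to 95, leaving out sham 1 raised it to 83, leaving out sham 3 to 38 and leaving out AD 1 to 35.

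The 22 circRNAs were faint. Their processed signal, the scanner intensity after background subtraction and in arbitrary units, ran from 9.47 to 63.4 over the sham spots and from 2.04 to 10.3 over the AD spots. Their median was 13.2, 23.4 and 17.8 on sham 1 to 3. It was 5.91, 8.06 and 7.44 on AD 1 to 3. Every sham median was above every AD median, a direction that the rule favours. The median circRNA on the arrays read 27.1, 48.0 and 36.4 on sham 1 to 3 and 26.9, 41.1 and 31.2 on AD 1 to 3. On sham 1 and sham 2 only 1 of the 22 reached the array's median, on sham 3 it was 2, and on the AD arrays none did. By rank, the median of the 22 lay at percentile 30.6 to 32.8 of all circRNAs on the sham arrays and at percentile 10.8 to 12.4 on the AD arrays.

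**Figure D2:**
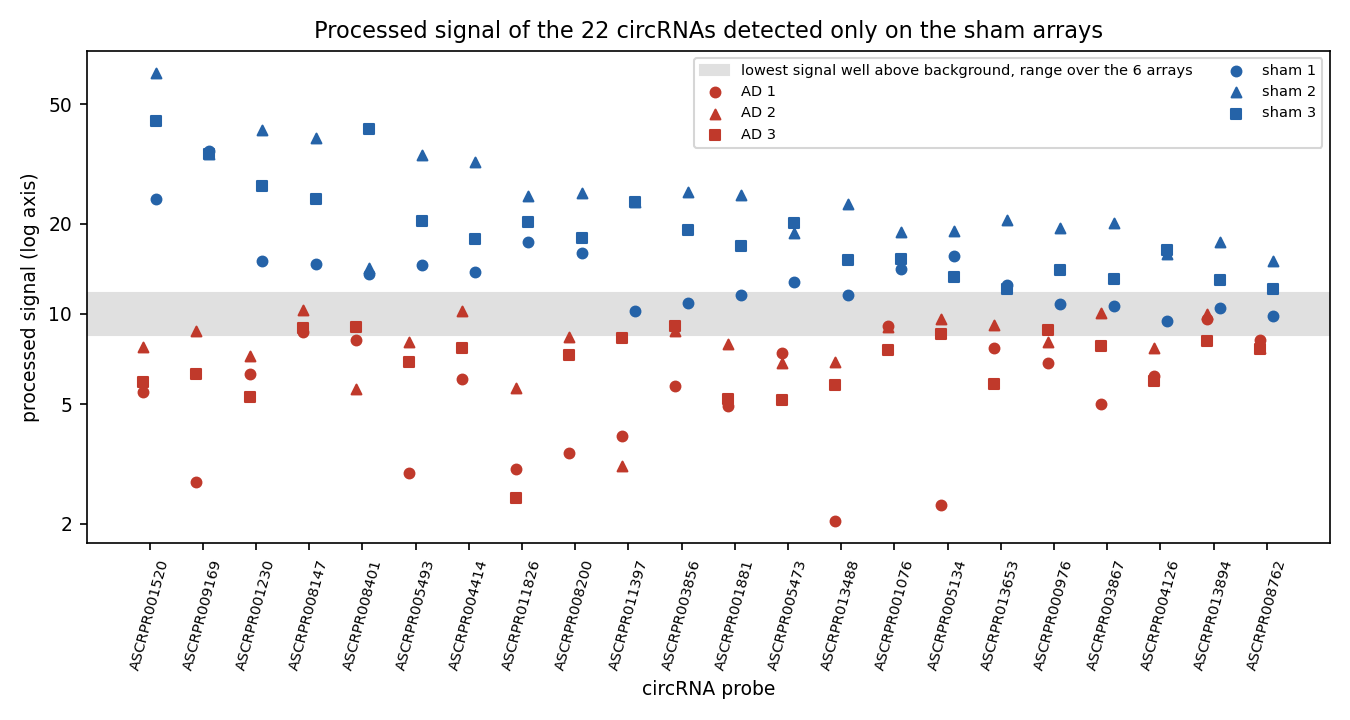
Processed signal (y axis, log scale, arbitrary units) of each of the 22 circRNAs (x axis, ordered from the highest to the lowest mean sham signal) on AD 1 to 3 (red) and sham 1 to 3 (blue), 1 spot per point. The grey band is the range, 8.51 to 11.8, of the lowest signal that was well above background on each of the 6 arrays; AD points lie in or under it, between 2.04 and 10.3, and many sham 1 points lie in it too.

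The lowest signal that was still marked well above background differed between arrays, and a signal of about 10 could pass on one and fail on another. It was 8.63 on AD 1, 9.80 on AD 2 and 9.38 on AD 3. On the sham arrays it was 8.51, 11.8 and 10.6. Signals with and without the mark also overlapped on every array, since the highest circRNA signal that was not marked reached 10.1 to 15.6 on the sham arrays and 10.5 to 11.05 on the AD arrays. Of the 22, 14 had a sham signal within 1.5 times the lowest marked signal of that array. For 2, ASCRPR001520 and ASCRPR009169, the signal was at least 2 times that value on all 3 sham arrays.

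To compare arrays of unequal brightness, the log2 of the processed signal was reduced by the 75th percentile of its array, which corresponded to signals of 81.0, 147.1 and 109.3 on sham 1 to 3 and of 81.0 to 123.7 on the AD arrays. On this scaled log2 scale the medians of the 22 were -2.62, -2.65 and -2.62 on sham 1 to 3. They were -3.78, -3.94 and -3.63 on AD 1 to 3. In the unscaled signal, sham 1 was the lowest sham array for 19 of the 22 and sham 2 the highest for 18. After scaling, sham 1 was the lowest for 7, sham 2 for 8 and sham 3 for 7, so the lowest level was spread over the sham arrays. The SD of the scaled log2 level over the sham arrays had a median of 0.23 over the 22, with a range of 0.03 to 0.99, against a median of 0.35 over all circRNA probes without an outlier mark. The rule required detection of the 22 on every sham array, whereas all probes include 1444 detected on no array. Nothing is therefore read from this difference in SD.

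**Figure D3:**
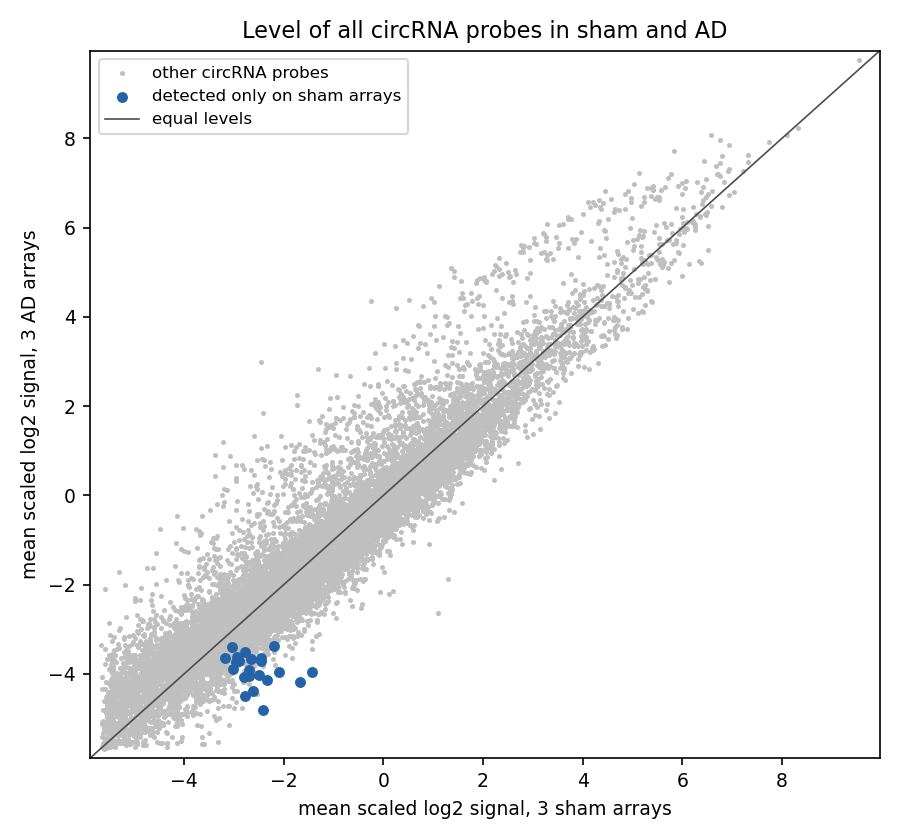
Mean scaled log2 signal over the 3 AD arrays (y axis) against that over the 3 sham arrays (x axis), 1 point per circRNA probe without an outlier mark, with the 22 sham-only circRNAs in blue and the line of equal levels. The 22 lie in the dim corner, at -3.17 to -1.43 in sham and -4.80 to -3.39 in AD, all under the line.

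The brightest of the 22 in sham was ASCRPR001520. It read 24.1, 63.4 and 43.9 on sham 1 to 3, and 5.48, 7.74 and 5.91 on AD 1 to 3. All 3 sham values exceeded all 3 AD values by a wide margin, and sham 1 was the lowest of the sham arrays. Its scaled log2 level was -1.43 ± 0.28 in sham and -3.95 ± 0.06 in AD (SD, n = 3 each). A spot under the detection mark was taken to give a bound. The sham level was divided by the AD level raised, on each AD array, to at least the lowest signal well above background there. By this bound, which holds for that choice of limit and for the scaled processed signal, ASCRPR001520 was at least 3.91-fold higher in sham. The ratio of the measured levels was 5.74.

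ASCRPR009169 came next. It read 35.0, 34.2 and 34.2 on sham 1 to 3 and 2.76, 8.77 and 6.28 on AD 1 to 3. The sham signals were nearly equal before scaling, and AD 1 was the lowest of all. Its bound was 3.31-fold at the same limit, beside a measured ratio of 5.75, with scaled log2 levels of -1.66 ± 0.45 in sham and -4.19 ± 0.60 in AD (SD, n = 3 each). It was the only one of the 4 brightest that read highest on sham 1.

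ASCRPR001230 and ASCRPR008147 followed in both sham level and bound, and in both sham 2 was the brightest array and sham 1 the dimmest of the sham arrays. ASCRPR001230 read 14.97, 41.0 and 26.8 on sham 1 to 3 and 6.33, 7.23 and 5.28 on AD 1 to 3, which gave a bound of 2.44-fold at that limit. ASCRPR008147 read 14.7, 38.6 and 24.2 on sham 1 to 3 and 8.71, 10.3 and 8.99 on AD 1 to 3, which gave 2.26-fold. The measured ratio was 3.63 for ASCRPR001230 and 2.29 for ASCRPR008147. For ASCRPR008147 the AD signals lay close to the lowest marked signal of their arrays, which was 8.63, 9.80 and 9.38, and the ratio was close to the bound.

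At the other end were ASCRPR013894 and ASCRPR008762, whose groups barely parted. ASCRPR013894 had the smallest difference, with 10.5, 17.3 and 13.0 on sham 1 to 3 and 9.59, 9.998 and 8.14 on AD 1 to 3, a bound of 1.23-fold at the lowest marked signal. Its sham 1 value exceeded its AD 2 value by 0.49, the smallest gap of the 22, and after scaling the groups overlapped. ASCRPR008762 read 9.85, 14.96 and 12.1 on sham 1 to 3 and 8.21, 7.69 and 7.62 on AD 1 to 3, and its bound of 1.17-fold at that limit was the smallest of the 22. ASCRPR008401 was not at this end, with a bound of 1.92-fold and a measured ratio of 2.38. Chosen after its values were seen for the widest spread over the sham arrays, it read 13.6, 14.2 and 41.4 on sham 1 to 3 and 8.19, 5.61 and 9.04 on AD 1 to 3. Its high value was on sham 3, the array with the other scan date, and its groups too overlapped after scaling. A link to the scan date was not tested.

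The rule has a threshold on every array, and the values beside it were close together. Just inside it, ASCRPR004126 read 9.47 on sham 1, 15.8 on sham 2 and 16.3 on sham 3, and its sham 1 signal was 1.11 times the lowest marked signal of that array. ASCRPR013653 read 12.5, 20.6 and 12.1 on sham 1 to 3, and its sham 3 signal was 1.13 times that value. On AD 1 to 3, ASCRPR004126 read 6.21, 7.69 and 5.97 and ASCRPR013653 read 7.69, 9.17 and 5.86. Just outside were circRNAs marked on all sham arrays and on AD 2 as well. ASCRPR012472 read 12.4, 19.9 and 15.1 on sham 1 to 3 and 8.04, 10.3 and 6.46 on AD 1 to 3, where its AD 2 signal was 1.06 times the lowest marked one. ASCRPR009159 read 13.3, 23.7 and 14.98 on sham 1 to 3 and 8.17, 10.5 and 10.8 on AD 1 to 3, and it was marked on AD 2 at 10.5 but not on AD 3 at 10.8. The sham signals of the circRNAs outside lay within the range of those of the 22.

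Over all 22, the bound at the lowest marked signal ran from 1.17-fold to 3.91-fold, with a median of 1.65-fold. The bound reached 2-fold for 5 of the 22, which were the 4 brightest and ASCRPR005493 at 2.07-fold, and stayed under 1.5-fold for 6. The ratio of measured levels ran from 1.29 to 5.75 with a median of 2.36, and the difference of scaled log2 levels, AD minus sham, from -2.52 to -0.37 with a median of -1.24. In the table of log2 values that the authors deposited, all 22 were listed and all had a lower mean in AD, but the differences were smaller. There the fold was 1.11 to 2.17 with a median of 1.41, and only ASCRPR001520 reached 2-fold. All AD values lay under all sham values for all 22 in processed signal, where this held for 7.54% of the 11580 circRNA probes detected on at least 3 arrays. It held for 20 of the 22 in scaled signal, against 14.9% of the same probes, and for 21 in the deposited table, against 16.9% of its 12132 probes. The rule used this contrast, so nothing is read from these shares.

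The bounds depended on the limit chosen. With the limit on each array at the 5th percentile of its detected circRNAs, the median bound was 1.29-fold, and 2 of the 22 reached 2-fold in place of 5. Those were ASCRPR001520 at 3.04-fold and ASCRPR009169 at 2.58-fold, while ASCRPR001230 was at 1.90-fold and ASCRPR008147 at 1.79-fold. ASCRPR013894 and ASCRPR008762 then had values of 0.998 and 0.909, so that no bound could be given for either. Without scaling, 9 of the 22 reached 2-fold.

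**Figure D4:**
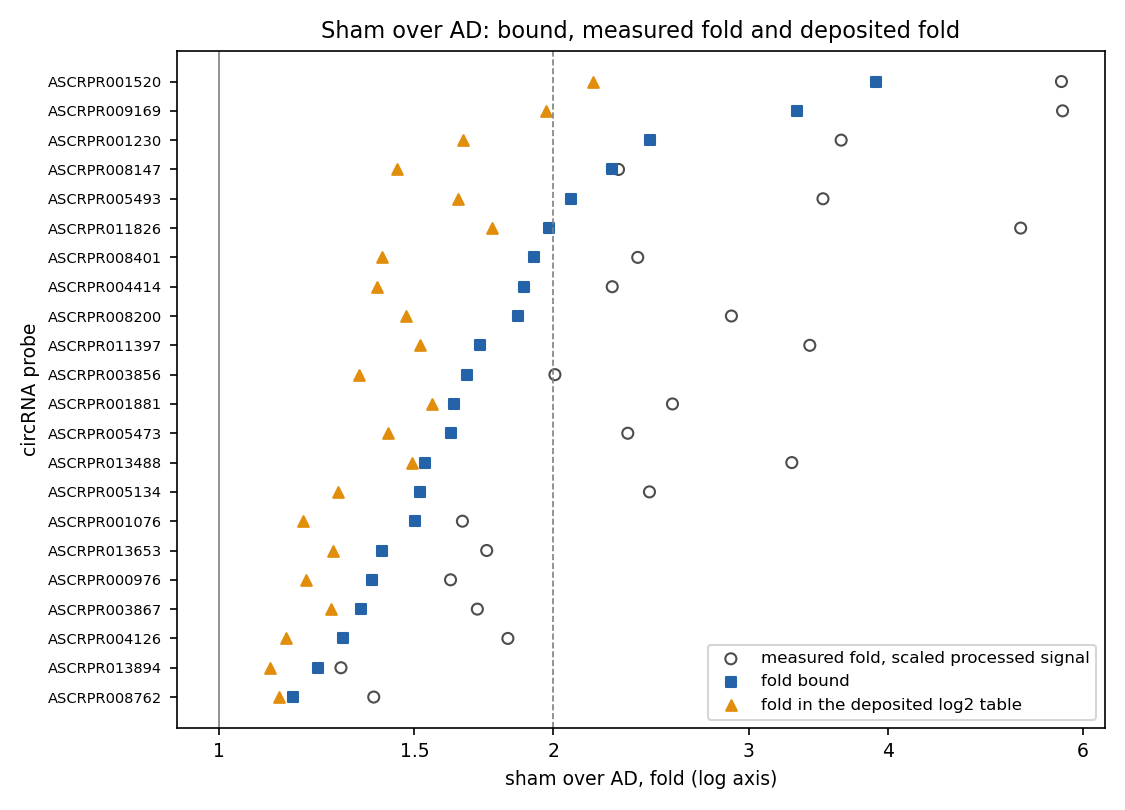
Fold of sham over AD (x axis, log scale) for each of the 22 circRNAs (y axis, ordered by bound), as the bound against the detection limit (blue squares), as the ratio of measured scaled levels (open circles) and as the fold in the deposited log2 table (orange triangles); the solid line is at 1 and the dashed line at 2. The bounds run from 1.17 to 3.91 and 5 pass 2-fold; the deposited folds run from 1.11 to 2.17.

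The software also gives an error for each spot, which covers that spot and not the spread between samples. This error of the 22 had a median of 2.36, 3.79 and 2.97 on sham 1 to 3 and of 2.01, 2.20 and 2.25 on AD 1 to 3, in the units of the signal. The gap between the lowest sham and the highest AD signal was at least 2 combined errors for 5 of the 22, and less than 1 for 8. These gaps come from the signals that chose the 22 and are a description.

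The same measures set the 22 beside the other circRNAs detected on exactly 3 arrays. On the arrays where they were detected, the median of the mean signal was 18.1 for the sham-only pattern and 14.6 for the AD-only pattern, and over the mixed patterns it ran from 11.6 to 18.3. The bound of detected over not detected arrays had a median of 1.65-fold for sham only, 1.57-fold for AD only and 1.17-fold to 1.57-fold for the mixed patterns. It reached 2-fold in 22.7% of the sham-only circRNAs (5 of 22), in 22.9% of the AD-only ones (32 of 140) and in 2.36% of the mixed ones (8 of 339). The mixed patterns were unlike each other. Of the 8, 3 belonged to the pattern of AD 1 with sham 2 and sham 3, which also held 22 circRNAs. Its median bound was 1.57-fold and its largest 3.83-fold, near those of the sham-only pattern. The largest bound was 3.91-fold for sham only and 7.42-fold for AD only. Among the mixed patterns it was 4.64-fold, for AD 2 with AD 3 and sham 2, which was above that for sham only. On the 3 arrays without the detection mark, the weaker mark of a positive and significant signal was present on all 3 for 95.5% of the sham-only, 80.7% of the AD-only and 93.5% of the mixed circRNAs. These shares were not tested against each other, since the patterns were formed from the same signals.

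In limma's fit of AD against sham over 11580 circRNA probes detected on at least 3 arrays, 14 of the 22 were at least 2-fold lower in AD with an unadjusted p under 0.05, and 2.89% of all probes tested met the same condition. At a Benjamini-Hochberg adjusted p under 0.05, 8 of the 22 were lower in AD, against 0.397% of all probes. As the rule used this contrast, nothing is read from these counts. The count of 8 rested on the set of arrays. Without sham 1 it was 14, but the count over all probes rose with it, from 46 to 678, or 5.85%. Without AD 2 it was 2, and the count over all probes was 2 as well. It was 0 without AD 1, AD 3, sham 2 or sham 3, as was the count over all probes, with 21, 17, 20 and 17 of the 22 in that order at an unadjusted p under 0.05.

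The position of the spots was a property that the rule did not use. When the 192 rows of the array were cut into 4 bands of 48, the bands held 4, 3, 12 and 3 of the 22, and 24.8%, 25.0%, 25.1% and 25.0% of all circRNA probes without an outlier mark. The third band, rows 97 to 144, thus held most of the 22. In that band 76.3% to 84.3% of all circRNA probes were well above background on the AD arrays and 75.8% to 79.0% on the sham arrays. Over every array and band, the median scaled log2 level of all circRNA probes was within -0.07 and 0.08 of that of the whole array. This comparison was made after the positions were seen, and a part of spot position in the result was not tested.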

How the data were processed

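The circRNA arrays of 3 AD and 3 sham samples were used. Per the file headers, the authors extracted the scans with Agilent Feature Extraction 11.0.1.1. The submitters' notes list limma too, and its use is not stated there. Spot values were deposited as intensities, with background subtracted by the software in the processed signal, and with marks of 0 or 1 for detection and outliers. The authors' deposited log2 table lists 12132 circRNA probes, with column medians of 6.18 to 6.21 and a highest value of 16.4 in every column; the sources used here do not state how it was normalized, and it served as an alternative.

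Of 15701 spots, 536 were controls and left out. From the log2 processed signal, the 75th percentile of the same array over all other probes was subtracted. AD and sham were compared in R 4.3.3 with limma 3.58.1 (lmFit and eBayes, no block) over the 11580 circRNA probes detected on 3 or more arrays, with Benjamini-Hochberg adjustment, after the fit had been tested on simulated data. The fold bound compares mean scaled log2 levels, with every AD value set to the higher of its own and the lowest signal well above background on its array. The small number of arrays limits the precision. No circRNA spot was saturated.

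The members and lists were chosen with earlier results of these data known. Probes named are the 4 with the highest sham level, the 4 with the largest bound (the same 4), 2 just inside and 2 just outside the rule, and the 2 with the smallest difference. Linear probes were matched to marker genes by RefSeq accession. The alternatives were the detection mark, the limit behind the bound, outlier marks, scaling, quantile normalization, normexp background correction with an offset of 50, the deposited table, no filter, the methods' t-test, a block for replicate number or scan date, and leaving out each array in turn.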

Additional observations from a re-analysis of the deposited data

How the results depend on the processing

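The count of 22 was 22 with outlier-marked probes kept. It was 7, none of them among the 22, with the mark of a positive and significant signal in place of well above background, and 40, of which 17 were among the 22, with 1 common limit on the scaled signal for all arrays. With each array left out in turn it was 28 to 95. The median bound of 1.65-fold was 1.29-fold with the limit at the 5th percentile and 1.51-fold to 1.75-fold with an array left out. The median AD minus sham difference of -1.24 was -1.48 after quantile normalization, -0.50 in the deposited table and -0.17 after normexp correction, where 20 of the 22 were lower in AD. The offset of 50 that normexp adds is larger than most of these signals and by construction shrinks their differences. The normexp setting also started from the median spot signal and the local background in place of the processed signal. The part of each in the change was not tested. The direction of the median difference was set by the choice of the 22. The 14 circRNAs at 2-fold and an unadjusted p under 0.05 became 0 after normexp and 1 in the deposited table, and numbered 12 to 17 under the other 13 alternatives. Over all probes tested, 335 met this condition in the main fit, 64 after normexp and 191 in the deposited table. Under the other alternatives 213 to 688 did. The 8 at an adjusted p under 0.05 became 3 without scaling, 4 without the filter and 0 to 14 with an array left out. Over all probes, the 46 lower in AD became 6 without scaling, 17 without the filter and 0 to 678 with an array left out. In limma the 8 became 0 after normexp, with 1 of the 22 at an unadjusted p under 0.05, while over all probes 57 were lower after adjustment. The 8 also became 0 with the replicate number as a block (19 at an unadjusted p under 0.05), as did the count over all probes. With the scan date as a block both counts were 0 too (17 of the 22 at an unadjusted p under 0.05). Sham 3 alone had the second scan date, so this equals leaving it out. The methods' t-test gave 0 of the 22 after adjustment, against 2 over all probes, and 18 of the 22 at an unadjusted p under 0.05. Samples with the same number were not taken as pairs, since the labels number the samples and state no pairing. Their deviations from the group means correlated at 0.17, 0.19 and 0.03. Samples with different numbers were not compared in this way, so these values do not decide whether there were pairs. For these losses the cause was not tested. The signals of the 22 in AD lay near the background, although 21 of them were positive and significant on all 3 AD arrays. The bound holds for the scaled processed signal and the limit chosen. It is no lower limit for the deposited table, where the median fold was 1.41.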
